A study of Mus musculus with 24 samples.

Results

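The comparison described here was the main effect of early-life stress on gene expression in the nucleus accumbens (NAc) over both sexes. MSUS stands for maternal separation of the pups together with unpredictable stress of the dam. All 12 MSUS mice were set against all 12 control (Con) mice, with sex as an additive term and no interaction. The 24 animals were all 24 samples of the series, 6 in each of the groups Con female, MSUS female, Con male and MSUS male. Every animal was of the C57BL/6 strain by the labels (C57BL/6J in the methods of the study) and 50 days old, and the MSUS pups were separated from the dam on postnatal days 1 to 14, for 2 h a day by the series text. The methods of the study give another daily length. Whole litters were assigned to Con or MSUS, and the labels do not say which animals were littermates, so the p-values measure the spread between animals and cannot tell a litter from the treatment. The labels attach an estrous stage to males as well as females, and the stage was therefore not used. RNA came from bilateral NAc punches and was depleted of ribosomal RNA, so unspliced nuclear RNA was kept. The sense-strand reads falling in genes came to between 39923666 and 70575745 counts per animal. Genes were then compared for the direction of the difference in females alone (6 MSUS against 6 Con) and in males alone (6 MSUS against 6 Con), which share no animal.

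The NAc is the ventral part of the striatum and receives dopamine from the midbrain. Most of its neurons are medium spiny neurons, which carry either the D1 or the D2 dopamine receptor. In bulk tissue, fewer cells of a type and less RNA per cell cannot be told apart. Expression is given below in normalized counts, which are counts divided by each library's effective size, and differences as log2 fold changes of MSUS against Con.

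No gene passed an adjusted p under 0.10 in the pooled comparison by edgeR's quasi-likelihood test with Benjamini-Hochberg adjustment over 21500 genes (0% of the genes tested). At an unadjusted p under 0.05 there were 2248 genes (10.5%), of which 1295 were higher in MSUS (6.02%) and 953 were lower (4.43%). DESeq2 called 1 gene, Btaf1, and had 2292 genes at an unadjusted p under 0.05. The smallest adjusted p by edgeR was 0.161, also for Btaf1, and the next was 0.470. The pooled differences were mostly those of the females. Among the 2248 genes, 1900 had an unadjusted p under 0.05 in females alone, where 31.7% of all genes did, and 66 in males alone, where 0.967% (208 genes) did. The log2 fold change was larger in size in females for 94.0% of the 2248. Females alone had 4981 genes at an adjusted p under 0.10 (23.2%) and males alone 0 (0%). Of the 4981 genes, 1756 (35.3%) had the same sign in males. Over all 21500 genes the sign agreed between the sexes in 41.9%, and across genes the female and male log2 fold changes had a Pearson r of -0.22, a description over genes that share libraries. The agreement depended on single males, from 32.4% without MSUS male 1 to 60.2% without MSUS male 6. Without MSUS male 6 the genes at an unadjusted pooled p under 0.05 numbered 4343 in place of 2248. The group-by-sex interaction, fitted over all 24 animals, also had 0 genes at an adjusted p under 0.10 (0%) and 4031 at an unadjusted p under 0.05 (18.7% of genes, 9.77% with the higher value in females and 8.98% with the higher value in males). The smallest adjusted p of the interaction by edgeR was 0.20. The study, at the same threshold, did report genes with a significant interaction by DESeq2. That method was not rerun here for the interaction, so the 0 holds for the edgeR fit only.

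Of 38 genes with an unadjusted p under 0.05 in both sexes, 26 had opposite signs and 12 the same sign (0.0558% of the genes tested). Beside this, the sign agreed in 41.9% of all genes tested, and the 12 are given as a description. The split turned with the fit. With the share of pairs in no annotated gene (described below) as a covariate, 6 of 9 genes had the same sign. With the level of Ide as a covariate, a choice made after seeing the data, 56 of 62 did. In females alone 16.8% of genes were higher and 15% lower at an unadjusted p under 0.05, and in males alone 0.358% and 0.609%. Among the 12, those higher in MSUS of both sexes included Btaf1 and 2 gene models of low count, Gm47494 and Rpl10-ps6. Lower in MSUS of both sexes were Hist1h2ae, Gm26673, Alkbh7, Trp53i13, Foxo6, Cd14, E2f2 and Gm9887. None of the 12 reached an adjusted p under 0.10 in males alone by edgeR. Of the 12, 7 had a mean of at least 100 normalized counts.

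**Figure D1:**
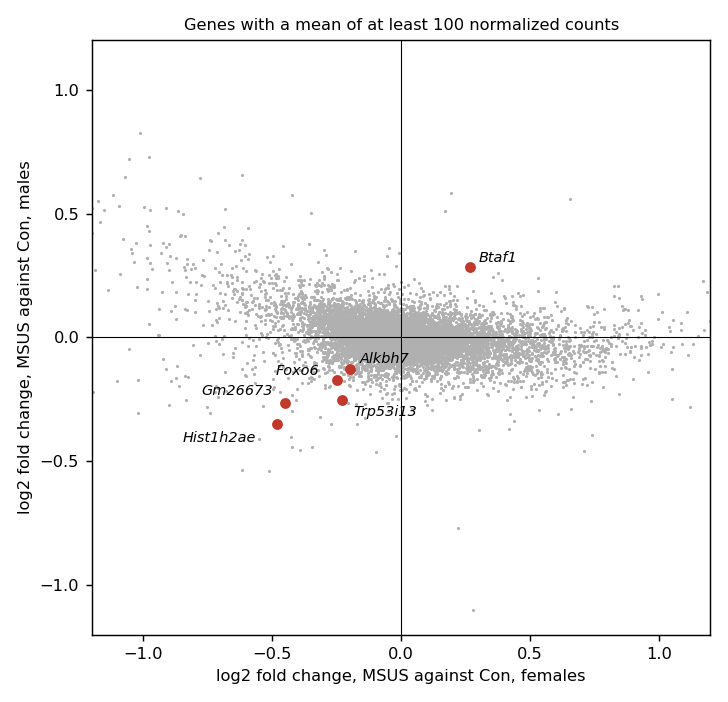
Log2 fold change of MSUS against Con in females (x axis) and males (y axis) for genes with a mean of at least 100 normalized counts, each grey point a gene, with axes cut at 1.2 on either side. The 6 red points, all named in the text, had an unadjusted p under 0.05 and the same sign in both sexes, and Btaf1 lies apart from the cloud at 0.27 in females and 0.28 in males.

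Btaf1 (ENSMUSG00000040565.7) encodes the ATPase that removes TATA-binding protein from DNA and thereby frees it for other promoters. The gene lies on the plus strand of chromosome 19, from 36926079 to 37012752 in mm10. Btaf1 in Con females ran from 3838 through a median of 4121 to 4565 normalized counts, and in MSUS females from 4098 through 5080 to 5446. In Con males it ran from 3457 through 4076 to 4505, and in MSUS males from 4439 through 5006 to 5719. The ranges overlapped in each sex, in females because of 1 MSUS animal and in males because of 1 Con animal lying above the lowest MSUS animal. Against the median of the Con animals of the same sex, 5 of 6 MSUS females and 6 of 6 MSUS males were higher. Mean levels were 4108 ± 306 in Con and 4966 ± 439 in MSUS (SD, n = 12 each). The pooled log2 fold change was 0.27 (SE 0.048, unadjusted p = 7.5e-06), which is 1.21-fold, with a 95% interval of 0.18 to 0.37. It was 0.27 in females (SE 0.063, unadjusted p = 8.9e-04, adjusted p = 0.0166 by edgeR). In males it was 0.28 (SE 0.071, unadjusted p = 0.0013, adjusted p = 0.99997 by edgeR). The difference between the sexes, female minus male, was -0.027 (SE 0.098). DESeq2 gave an adjusted p of 0.0016. The edgeR adjusted p was 0.859 with the share of pairs in no annotated gene as a covariate and 0.659 with offsets for GC content and length.

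The core promoter of Btaf1 is shown because this gene had the smallest pooled p, together with those of Alkbh7 and Trp53i13, lower in MSUS of both sexes. Each is the 250 bases before the RefSeq gene start in GRCm38.p6, read 5′ to 3′ on the gene's strand. Capitals mark matches on either strand to GGGCGG (the GC box), CACGTG (the E-box), TGACGTCA (the cAMP response element), TATAAA (the TATA box) and AAGATGGC (the YY1 core). Btaf1 is at chr19:36925829-36926078, Alkbh7 at chr17:56997089-56997338 and Trp53i13, on the minus strand, at chr11:77513274-77513523. In the gene annotation used here (GENCODE M21) Trp53i13 runs from 77508099 to 77515980, so its window lies inside that span and not before it.
Btaf1: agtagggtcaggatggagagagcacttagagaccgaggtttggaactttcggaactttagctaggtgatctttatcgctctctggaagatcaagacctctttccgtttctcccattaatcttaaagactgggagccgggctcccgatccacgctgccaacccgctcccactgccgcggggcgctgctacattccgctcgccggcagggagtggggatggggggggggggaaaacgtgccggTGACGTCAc
Alkbh7: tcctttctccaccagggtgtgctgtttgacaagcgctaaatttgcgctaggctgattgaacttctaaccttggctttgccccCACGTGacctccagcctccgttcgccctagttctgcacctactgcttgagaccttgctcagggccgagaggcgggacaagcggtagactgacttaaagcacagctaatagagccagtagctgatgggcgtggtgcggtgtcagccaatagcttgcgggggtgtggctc
Trp53i13: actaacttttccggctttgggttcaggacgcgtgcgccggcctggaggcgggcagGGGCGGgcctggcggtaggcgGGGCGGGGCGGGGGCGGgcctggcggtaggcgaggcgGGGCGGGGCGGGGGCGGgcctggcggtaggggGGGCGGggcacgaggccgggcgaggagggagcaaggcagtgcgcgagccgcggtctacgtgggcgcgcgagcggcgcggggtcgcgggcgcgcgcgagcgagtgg
Btaf1 held 1 TGACGTCA, ending next to the gene start, and Alkbh7 1 CACGTG. Trp53i13 held 8 GGGCGG, which overlap one another in part, in a stretch of 80.8% G and C. In the window that also takes in the first 50 bases of the gene, TGACGTCA was in 3.0% of the promoters of the 13045 tested genes with an entry. It was in 4.06% of those higher and 3.39% of those lower at an unadjusted pooled p under 0.05. GGGCGG was in 53.8% of the promoters of the higher genes, 66.2% of the lower and 59.98% of all. In the same order, TATAAA was in 8.55%, 7.34% and 7.77%, CACGTG in 8.33%, 8.90% and 9.48%, and AAGATGGC in 3.63%, 4.52% and 4.07%. These are matches of letters only.

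Of the 9 other genes with a mean of at least 100 normalized counts lying at least in part within 500 kb of Btaf1, 3 were also higher at an unadjusted pooled p under 0.05, Ide, Hectd2 and Pcgf5. Over all genes tested 6.02% were higher at that level, and this window was chosen after the values were seen. Kif11, at 450 kb, was below 0 in the pooled comparison, at -0.24 (SE 0.20), with -0.55 in females and 0.084 in males. Hectd2, a ubiquitin ligase gene, had a log2 fold change of 0.16 (SE 0.062), with 0.25 in females and 0.088 in males. Pcgf5, of a Polycomb complex, was at 0.12 (SE 0.050), with 0.18 and 0.067. Both begin before Btaf1, at -371 and -578 kb, and Tnks2 between them and Btaf1 was at 0.0027 (SE 0.029). Ide, which encodes an enzyme that degrades insulin and amyloid peptides, lies at 37268743 to 37337852 on the minus strand, and Rpl10-ps6, one of the 12 genes, is a processed pseudogene inside Ide. Ide levels in Con females ran from 2565 through a median of 3506 to 4017 normalized counts, and in MSUS females from 2539 through 3951 to 4297. In Con males they ran from 2511 through 2645 to 4047, and in MSUS males from 3812 through 4056 to 6364. Ide levels fell in steps rather than along a continuous range. Of the 24 animals, 7 lay between 2511 and 2741, 1 at 3165, 15 between 3812 and 4297, and 1 at 6364. The lowest 7 were 2 Con females, 4 Con males and 1 MSUS female, and the highest was MSUS male 6. MSUS female 5, at 2539 for Ide, was also the lowest MSUS animal for Btaf1 at 4098, and MSUS male 6 was the highest animal for Btaf1 at 5719. Btaf1 followed the Ide steps in all 24 animals. It was between 3457 and 4098 in every animal at 3165 or lower for Ide, and at 4193 or higher in all others. Most animals low for Ide were Con, so group and Ide step overlapped in part. Among animals between 3812 and 4297 for Ide, Btaf1 ran from 4193 to 4565 in Con and from 4439 to 5446 in MSUS. The pooled log2 fold change of Ide was 0.34 (SE 0.12, unadjusted p = 0.0091). It was 0.17 in females (SE 0.15) and 0.51 in males (SE 0.17).

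Fgfbp3, a binding protein for fibroblast growth factors whose start lies at -6.46 kb from that of Btaf1, had a pooled log2 fold change of 0.11 (SE 0.11). It was 3.1e-04 in females (SE 0.18) and 0.22 in males (SE 0.11). The genes between Btaf1 and Ide had values near 0. Cpeb3, a regulator of mRNA translation, was at -0.030 (SE 0.045) and March5, a mitochondrial ubiquitin ligase, at -0.041 (SE 0.039), with 95% intervals of -0.12 to 0.059 and -0.12 to 0.035. As background, copy-number differences that cover Ide and Fgfbp3 have been described among C57BL/6J mice, and whether these mice differed in copy number was not tested. With the log2 level of Ide added as a covariate, a choice made after seeing the data, the log2 fold change of Btaf1 was 0.16 (adjusted p = 0.063). That fit called 2106 genes at an adjusted p under 0.10, and 1569 without MSUS male 6. With the share of pairs in no annotated gene (described below) added as well, it called 0 genes, with 1097 at an unadjusted p under 0.05, and Btaf1 was at 0.094. Ide is itself a measured level that differed between the groups, so these fits estimate another quantity than the pooled comparison.

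**Figure D2:**
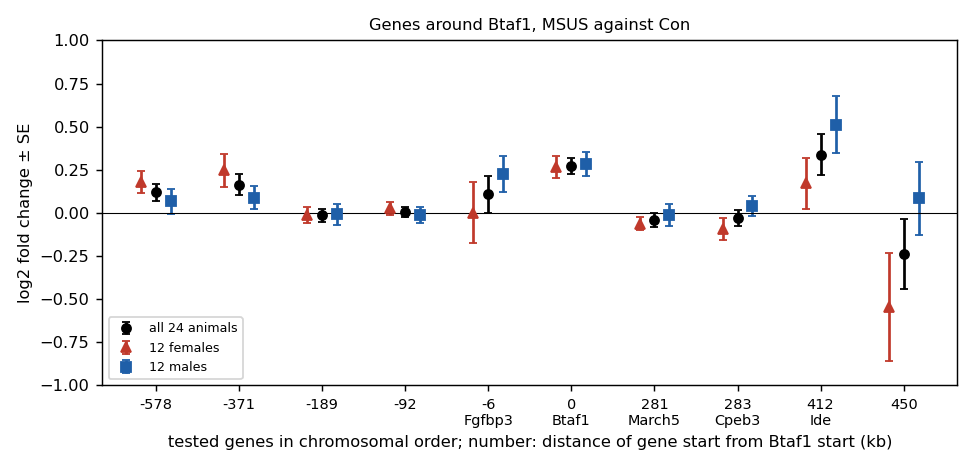
Log2 fold change with SE of MSUS against Con for the tested genes with a mean of at least 100 normalized counts lying at least in part within 500 kb of Btaf1, in chromosomal order (x axis, with each gene start's distance from that of Btaf1 in kb). Ide, Btaf1, Hectd2 and Pcgf5 (the last 2 the unlabelled points at the left) are above 0 in both sexes, at 0.34, 0.27, 0.16 and 0.12 over all 24 animals, and Cpeb3 and March5 are near 0.

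Apart from Rpl10-ps6, the other genes of the 12 were spread over other chromosomes. Trp53i13 is a transcriptional target of p53. It ran from 115 through 129 to 156 normalized counts in Con females and from 101 through 108 to 127 in MSUS females. In males it ran from 104 through 129 to 143 in Con and from 87.2 through 106 to 127 in MSUS. All 12 MSUS animals were below the Con median of their sex, and the ranges overlapped. Such counts, for this and the other named genes, describe genes chosen by p and sign in these same animals and add no support. The pooled log2 fold change was -0.24 (SE 0.072). Foxo6, a forkhead transcription factor of the adult brain, was at -0.21 (SE 0.069), from -0.25 in females to -0.17 in males, again with all 12 MSUS animals under the Con median. With offsets for GC content and length the value of Foxo6 was -0.075 and that of Trp53i13 -0.15.

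Alkbh7, a mitochondrial dioxygenase, had a log2 fold change of -0.17 (SE 0.045), with -0.20 in females and -0.13 in males. Gm26673, an antisense transcript on chromosome 6, was at -0.36 (SE 0.087). Hist1h2ae, a replication-dependent histone H2A gene, was at -0.42 (SE 0.13). Histone H2A genes are near-identical copies, so reads could be split between them. Con females ran from 123 through 131 to 272 normalized counts for Hist1h2ae. The remaining genes of the 12 had means under 100 normalized counts. Cd14, the microglial and monocyte receptor for lipopolysaccharide, was at -0.31 (SE 0.086), with all 12 MSUS animals below the Con median of their sex. E2f2, a cell-cycle transcription factor, was at -0.69 (SE 0.23), and Gm9887 at -0.65 (SE 0.20). Gm47494, inside an intron of Ryr2, was at 0.45 (SE 0.11), and Rpl10-ps6 at 0.63 (SE 0.15).

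**Figure D3:**
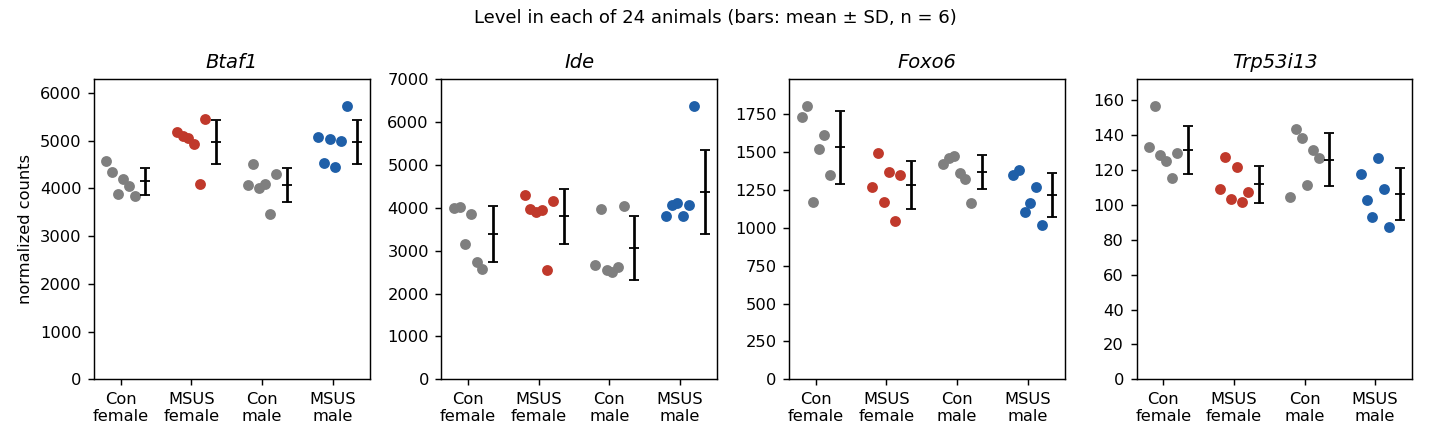
Normalized counts of Btaf1, Ide, Foxo6 and Trp53i13 (y axes, from 0) in each of the 24 animals, by group (x axis), with the mean and SD of the 6 animals beside the points. Btaf1 lies higher and Foxo6 and Trp53i13 lower in MSUS of both sexes with overlapping ranges, and Ide falls in steps, with MSUS male 6 at 6364.

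Genes with the same sign in both sexes and a mean of at least 100 normalized counts were ordered by pooled p. The first 10 that were higher in MSUS included Btaf1 and, next among those named here, Eif2ak4, the kinase that senses amino acid shortage. Its log2 fold change was 0.094 (SE 0.025), from 0.14 in females to 0.053 in males. Also among them were Nktr, a cyclophilin found with splicing factors, Snhg11 and 5 gene models. Snhg11, an abundant neuronal long non-coding RNA, was at 0.18 (SE 0.050), with 0.31 in females and 0.052 in males. Nktr was at 0.15 (SE 0.042), with 0.28 and 0.035. The gene models were Gm45131, C530043K16Rik (inside Apbb2), Gm37963 (inside Usp4), 6030400A10Rik (inside Cpeb2) and Gm38077, with log2 fold changes from 0.26 to 0.49. Among these, C530043K16Rik had the closest values in the sexes, 0.36 in females and 0.24 in males.

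The 10 that were lower were, besides Gm26673, Fzd2, Ddr1, Emc10, Tpcn1, Maf1, Gm45606, 1500009C09Rik, Zfp580 and Stk11. Fzd2, a Wnt receptor, ran from 621 through 659 to 819 normalized counts in Con females and from 521 through 557 to 600 in MSUS females, with no overlap. In males it ran from 552 through 576 to 599.5 in Con and from 513 through 543 to 575 in MSUS. Females without overlap between MSUS and Con were seen for 1489 genes (6.93%), and males for 8 genes (0.0372%). The log2 fold change of Fzd2 was -0.19 (SE 0.044), with -0.28 in females and -0.090 in males. Ddr1, a receptor kinase activated by collagen, was at -0.17 (SE 0.041). Emc10, of the complex that inserts proteins into the endoplasmic reticulum membrane, was at -0.13 (SE 0.031). Tpcn1, a channel of endosomes and lysosomes, was at -0.10 (SE 0.026), and Maf1, which represses RNA polymerase III, at -0.099 (SE 0.025). Stk11, the kinase upstream of AMPK, was at -0.10 (SE 0.028). At least 9 of 12 MSUS animals were below the Con median of their sex for each of these 6 genes. Their adjusted p by edgeR was 0.470. With offsets for GC content and length, Stk11 was at -0.021, Tpcn1 at -0.031, Emc10 at -0.052, Maf1 at -0.057, Ddr1 at -0.081 and, among the higher genes, Nktr at 0.027. Under these offsets 27 of the 63 named genes had a value that was smaller by over 1.5 times or of the other sign.

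The genes at an unadjusted pooled p under 0.05 differed in kind between the directions. Of the 1295 that were higher, 547 (42.2%) were annotated inside an intron of another gene and 37.1% were protein coding, against 13.4% and 70.9% of all genes tested. Their median GC content over exons was 42.6%. Among the 953 that were lower, 16 (1.68%) lay inside an intron, 93.3% were protein coding and the median GC content was 55.6%, against 48.8% over all genes. Over the 2883 genes inside introns the median log2 fold change was 0.17 pooled, 0.40 in females and -0.044 in males, beside -0.0031, 0.0028 and 0.0030 over all genes.

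A library measure moved with these differences. The share of uniquely mapped pairs in no annotated gene was between 31.0% and 34.8% in Con females and between 36.3% and 43.9% in MSUS females, without overlap. It was between 34.7% and 40.6% in Con males and between 32.2% and 44.7% in MSUS males. The pooled mean difference within sex was 3.18 percentage points (two-sided exact permutation test, p = 0.045). In females it was 7.25 (exact p = 0.0022, the smallest this design allows) and in males -0.89 (exact p = 0.68). The difference between the sexes was 8.14 percentage points (exact p = 0.0083). These are 4 tests on 1 measure and the p-values are unadjusted. With the share as a covariate, the genes at an unadjusted pooled p under 0.05 numbered 592 in place of 2248, with 0 at an adjusted p under 0.10, and females alone had 0 called genes, with 1199 at an unadjusted p under 0.05, in place of 4981. The interaction had 343 genes at an unadjusted p under 0.05 in place of 4031. The sign then agreed between the sexes in 52.8% of genes, and 35 of the 63 named genes had a value that was smaller by over 1.5 times or of the other sign. Btaf1 stayed at 0.27 and Trp53i13 was at -0.26, while Snhg11 was at 0.11 and Nktr at 0.073. The part of the share in the differences was not tested further, and in females it cannot be told apart from MSUS.

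**Figure D4:**
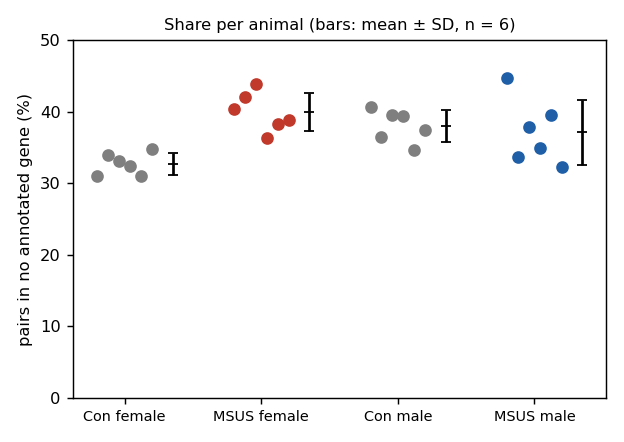
Share of uniquely mapped pairs that fell in no annotated gene (y axis, percent, from 0) in each animal by group (x axis), with the mean and SD of 6 animals. The female groups do not overlap, at 31.0 to 34.8% in Con and 36.3 to 43.9% in MSUS, and the male groups do.

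The NAc label was checked with medium spiny neuron genes. The 15 shared markers, none at 0, summed to between 5560 and 12193 CPM (counts scaled to a common library total) over the 24 animals, and the 15 cortical excitatory markers to between 1870 and 4190. By group the cortical sum ran from 2333 to 4148 in Con females, 2039 to 2876 in MSUS females, 1870 to 3392 in Con males and 1970 to 4190 in MSUS males. No D1 or D2 medium spiny marker (0 of 9 and 0 of 8) had an unadjusted pooled p under 0.05. Drd1, the D1 receptor gene, had a log2 fold change of -0.0024 (SE 0.13) and Drd2 of -0.070 (SE 0.12). Among the cortical markers 12 of 15 were below 0, with a median of -0.53, and the sexes went apart, with a median of -1.49 in females (7 of 15 lower at an unadjusted p under 0.05, where 15% of all genes were) and 0.19 in males (0 of 15). The cortical score was the mean over the 15 markers of log2 CPM scaled to SD units over the 24 animals. Its difference of MSUS minus Con, pooled within sex, was -0.37 (two-sided exact permutation p = 0.21). It was -0.95 in females (exact p = 0.017) and 0.21 in males (exact p = 0.63), and -1.16 for female minus male (exact p = 0.043). The p-values of these 4 tests are unadjusted. With this score as a covariate, 1387 genes had an unadjusted pooled p under 0.05, in place of 2248. The part of these cells in the differences was not tested further. At an unadjusted pooled p under 0.05, 1 of 15 was lower, Fezf2, with -1.02 (SE 0.47), -1.82 in females and -0.21 in males. Without Con female 2 the pooled value of Fezf2 was -0.61. With a cortical marker score as a covariate Btaf1 was at 0.29 (adjusted p = 0.053).

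The medians of the other cell types lay nearer to 0. All 15 markers of blood vessel cells (endothelial and mural) were below 0 in the pooled comparison, with a median of -0.074 (-0.10 in females, -0.048 in males), and 6 were lower at an unadjusted p under 0.05 against a background of 4.43%. Pdgfrb, the receptor of pericytes, was at -0.11 (SE 0.031), with all 12 MSUS animals below the Con median of their sex. Cldn5, of endothelial tight junctions, was at -0.11 (SE 0.040), with -0.12 in females and -0.094 in males. The summed level of the 15 was 470 to 511 CPM in Con females and 463 to 490 in MSUS females, and 489 to 520 and 457 to 525 in males. All 15 mature oligodendrocyte markers were also below 0, with a median of -0.11, but the sexes differed in their medians, -0.23 in females and 0.012 in males, and 1 of 15 had the same sign in both. Their sum was 4394 to 6426 in Con females, 4177 to 5136 in MSUS females, 4979 to 6439 in Con males and 5363 to 5806 in MSUS males. Gfap, the astrocyte filament gene, was at -0.31 (SE 0.12), with -0.41 in females and -0.21 in males, and the 15 astrocyte markers had a median of -0.024. Sox10 of the oligodendrocyte lineage was at -0.11 (SE 0.048). None of the 15 microglial or 15 interneuron markers had an unadjusted p under 0.05.

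The transcription initiation genes, which include the partners of Btaf1, had a median near 0. Of 33 tested, 3 (9.09%) were higher and 1 (3.03%) lower at an unadjusted p under 0.05, near the 6.02% and 4.43% of all genes, with a median log2 fold change of -0.013. Tbp, the TATA-binding protein that the Btaf1 product removes from DNA, was at 0.085 (SE 0.040), with 0.18 in females and -9.9e-04 in males. Taf2, of the TFIID complex, was at 0.054 (SE 0.021), and Taf4b, an alternative TFIID subunit, at -0.13 (SE 0.057).

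Lists of genes of stress, reward and chromatin gave few differences at an unadjusted pooled p under 0.05, where 6.02% of all genes were higher and 4.43% lower. Of 20 genes of the glucocorticoid and stress axis 1 (5%) was higher, Crh, the releasing hormone of the stress response. In the pooled comparison 15 of the 20 were below 0, with a median of -0.054 (-0.14 in females, 0.056 in males). In females alone 7 of the 20 were lower and 0 higher at an unadjusted p under 0.05, where 15% of all genes were lower. Crh levels ran from 37.4 through 103 to 237 normalized counts in Con females, from 80.1 through 149 to 370 in MSUS females, from 69.4 through 104 to 205 in Con males and from 90.4 through 149 to 260 in MSUS males. The groups overlapped widely, and the log2 fold change was 0.60 (SE 0.27, adjusted p = 0.47). Among 19 genes of dopamine signalling 1 was lower, Maob, an enzyme that breaks down monoamines, at -0.11 (SE 0.051). None of 14 opioid and neuropeptide genes and none of 19 genes of DNA methylation were at that level. Of the glutamate receptor list, Cnih2, an AMPA receptor auxiliary subunit, was at -0.13 (SE 0.042) and Gria2, an AMPA receptor subunit, at 0.070 (SE 0.033). Gria2 was at -0.046 with offsets for GC content and length, so its direction depended on that setting. Gabra2, a GABA-A receptor subunit, was at 0.17 (SE 0.068). Jund of the immediate early list was at -0.12 (SE 0.038) and Nr1d2, a clock repressor, at 0.11 (SE 0.047). Jmjd1c and Kdm6b, both of the histone demethylase family, were at 0.051 (SE 0.022) and -0.071 (SE 0.032), and Kdm6b turned to 0.023 with the same offsets. Kcnd3, a potassium channel gene, was at 0.12 (SE 0.054), and Bag3, a co-chaperone, at -0.14 (SE 0.053), with all 12 MSUS animals below the Con median of their sex.

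Most members of some larger families lay on 1 side of 0 in the pooled comparison. The counts at an unadjusted p under 0.05 stand beside 6.02% higher and 4.43% lower over all genes. All 21 genes of cholesterol synthesis and uptake were below 0, with a median of -0.12 (-0.22 in females, -0.026 in males), 16 had the same sign in both sexes, and 5 (23.8%) were lower. Srebf2, their transcription factor, was at -0.12 (SE 0.046), with -0.22 in females and -0.011 in males. Of 35 SR and hnRNP splicing factors 28 were above 0 and 10 (28.6%) were higher, with a median of 0.050 (0.11 and 0.0070). Tra2a, of that list, was at 0.16 (SE 0.056), with 0.31 and 0.014, and Nova2, a neuronal splicing regulator, at -0.076 (SE 0.035). Of 12 nuclear long non-coding RNAs 8 (66.7%) were higher, with a median of 0.17 (0.31 and 0.025). Of 78 nuclear genes of oxidative phosphorylation 75 were below 0 and 12 (15.4%) were lower, with a median of -0.067, -0.16 in females and 0.030 in males, and 12 had the same sign in both sexes. Atp5e was at -0.12 (SE 0.043). Of 86 cytosolic ribosomal protein genes 6 (6.98%) were lower, with a median of -0.035, and Rplp0 was at -0.11 (SE 0.037). Among extracellular matrix genes 2 of 23 were lower, Ncan among them at -0.094 (SE 0.041), and among innate immune and interferon genes 1 of 20, H2-D1 at -0.15 (SE 0.058). Of 12 tested genes of the X inactivation centre and its partners 9 were above 0, with a median of 0.065 (0.15 in females, -0.0019 in males). Of these 12, 3 (25.0%) were higher and 1 (8.33%) was lower. Ftx was at 0.27 (SE 0.097), with 0.55 in females and -0.0065 in males. Ythdc1 was at 0.10 (SE 0.047), with 0.21 and 0.0044, and Rbm15 at 0.074 (SE 0.034), with 0.12 and 0.039. The lower gene, Rbm15b, was at -0.091 (SE 0.034), with -0.16 in females and -0.0096 in males. Zfp108, of 368 zinc finger genes, was at 0.12 (SE 0.041), with 15 of them higher and 17 lower. Of 55 tubulin and kinesin genes 44 were below 0, with a median of -0.079 (-0.17 in females, 0.035 in males), 2 were lower and 1 was higher, Tubgcp5 at 0.051 (SE 0.023). No gene of these lists passed the adjusted test.

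**Figure D5:**
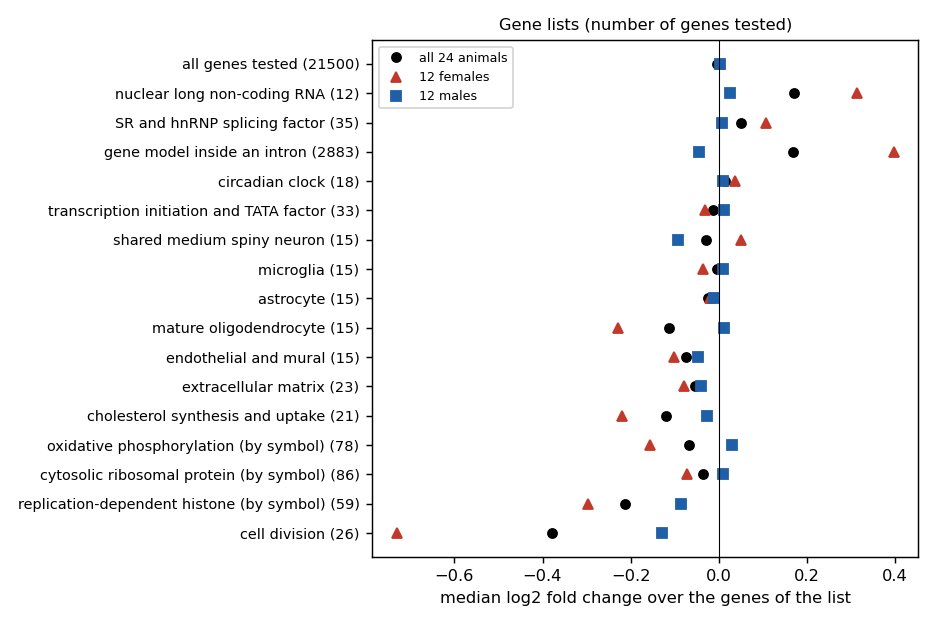
Median log2 fold change of MSUS against Con over the genes of each list (x axis) for all 24 animals, the 12 females and the 12 males, with the number of genes tested in brackets. Female medians lie farther from 0 than male medians in most lists shown. The cholesterol, blood vessel, extracellular matrix, astrocyte, histone and cell division lists are below 0 in both sexes.

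The 5 genes with the smallest interaction p had no adjusted p under 0.10 by edgeR (0.20 each). Gm43876 and Gm43875 lie in introns of Cntnap2. For Gm43876 the log2 fold change was 1.26 in females (SE 0.11) and -0.038 in males (SE 0.24), a difference of 1.29 (SE 0.27), beside a pooled value of 0.60. Gm43875 was at 1.05 and -0.25. Gm47260, in an intron of Ddx24, was at 0.38 and -0.084, Gm14399 at 0.40 and -0.084, and ENSMUSG00000109554.1, which has no symbol in the reference, at 0.60 and -0.074.

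The precision of the pooled comparison set bounds on what could be missed. The 14302 genes with a mean of at least 100 normalized counts had a median SE of 0.051 on the log2 scale. For 11049 of them (77.3%) the 95% interval of the pooled log2 fold change lay within 1.2-fold in either direction, and for 95.7% within 1.5-fold. The interval covers the average over both sexes, not each sex.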

How the data were processed

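The authors sequenced rRNA-depleted total RNA as 100-base pairs and deposited, per animal, the gene counts that STAR writes (unstranded, first and second strand). The submitters' processing notes name STAR 2.6.1b, HTSeq, DESeq2, CASAVA 1.8 and mm10. The sense-strand count column was used. Counts are whole reads, unnormalized, over 52636 gene rows, of which 52489 matched the GENCODE M21 annotation by identifier of the reference, while the study names an earlier release. Between 31.0% and 44.7% of uniquely mapped pairs fell in no gene and stayed out of library sizes. The strand-blind counts served as an alternative.

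Genes were kept by filterByExpr (edgeR 4.0.16, minimum count 10, 4 groups), TMM-normalized and tested with glmQLFit (robust) and glmQLFTest on sex plus group over 24 animals, on each sex alone, and on the interaction. The threshold, an adjusted p under 0.10, is that of the study, which compared MSUS with Con within each sex and tested the interaction with DESeq2. Intervals are 1.96 SE and cover the spread between animals. Libraries of a group differed beyond sampling noise (smallest chi-square per degree of freedom 5.88 over 60 pairs). The scripts were tested on simulated data. Alternatives were DESeq2 1.42.0, DESeq2 size factors, other filters, strand-blind counts, replicate blocks, covariates, 1 surrogate variable (sva 3.50.0), GC and length offsets, and leaving out each animal.

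Named genes were the 10 per direction with the smallest pooled p, a mean of at least 100 normalized counts and the same sign in both sexes, the genes with an unadjusted p under 0.05 in both sexes, the 5 with the smallest interaction p, and the list member with the smallest p per direction, the last narrowed, after seeing values, to those with p under 0.05, the same sign and that mean. Members, lists and rules were chosen with earlier results of these data known, and Ide, Hectd2, Pcgf5, Tnks2, Fgfbp3, Cpeb3, March5, Kif11 and the further list genes were named after their values were seen. A gene that met 2 of these rules is not reported here, and the counts over all genes include it.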

Additional observations from a re-analysis of the deposited data

Results flagged for a closer look

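The share of pairs in no annotated gene differed between the sexes in its MSUS effect, by 8.14 percentage points more in females than in males. Within 6 animals of a group, 1 animal stood far from the others for several of the named genes. Chance gives this for about 1 group in 20, and 19 such cases were found over 256 sets of 6 animals examined. In MSUS male 6, Ide was at 6364 and Gm45606 at 536 normalized counts, both the highest of the group. In MSUS female 5, Ide was lowest at 2539 and Tpcn1 lowest at 2303. Con female 2 was the highest Con female for Fzd2 (819), Hist1h2ae (272) and Fezf2 (947). Con female 3 was highest for Cpeb3 at 7080 and lowest for Cd14 at 52.5. MSUS female 1 was highest for Cpeb3 at 6333 and Maob at 990, and MSUS female 2 for Zfp108 at 557 and Gm47260 at 699. Among males, Con male 5 was highest for Fezf2 at 356 and Maob at 1089, Con male 3 for ENSMUSG00000109554.1 at 423 and Con male 6 for Kcnd3 at 5729. MSUS male 4 was highest for Kcnd3 at 5998 and MSUS male 6 for Fezf2 at 339.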

How the results depend on the processing

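The pooled count of called genes was 0 in most fits, 1 (Btaf1) with DESeq2 and with the cortical marker score as a covariate, and 2106 with the level of Ide as a covariate (1569 without MSUS male 6). Leaving out single animals gave 0 to 1 (1 without Con female 1, MSUS female 5, MSUS male 4 or MSUS male 6, the last being Gm45606 and not Btaf1). Without MSUS male 6, 4343 genes had an unadjusted p under 0.05. No filter on low counts gave 3191 and the share of pairs in no gene as a covariate 592. The correlations of same-numbered Con and MSUS deviations ran from -0.37 to 0.26, which cannot settle whether the replicate numbers pair the animals. With the number as a replicate block 0 genes were called, or 0 with the number within sex, with 2068 and 1654 at an unadjusted p under 0.05. Of 38 genes with p under 0.05 in both sexes, 12 had the same sign. These became 6 of 9 with the share of pairs in no gene as a covariate and 56 of 62 with Ide. On leaving out 1 animal the number with the same sign was 4 (without Con male 5) to 28 (without MSUS male 6). The share of genes with the same sign was 40.9% without regard to strand, 52.8% with the share of pairs and 70.3% with Ide, and 32.4% (without MSUS male 1) to 60.2% (without MSUS male 6) on leaving out 1 animal. Females alone had 0 calls with the share of pairs as a covariate and 3049 (without MSUS female 3) to 5658 on leaving out 1 animal, and males alone 0 to 0. Signs turned for Fgfbp3 with Ide as a covariate (-0.13, -0.14 without MSUS male 6 and -0.21 with the share of pairs), and for Kdm6b (0.023) and Gria2 (-0.046) with offsets for GC content and length. Cpeb3 turned to 0.017 with the share of pairs as a covariate (0.017 with that covariate and MSUS male 1 left out), 0.013 with the cortical score, 0.0045 with Ide and the share, and 0.014 in the group-by-sex model with the share. Of 63 named genes, 59 kept their direction in every fit, but the values of 27 of the 63 became smaller by over 1.5 times or turned with the offsets for GC content and length (Jund -0.013, Nova2 -0.0065, Sox10 -0.021, Srebf2 -0.039), 35 with the share of pairs and 12 with the cortical score as a covariate. The interaction had 343 genes at an unadjusted p under 0.05 with the share of pairs, in place of 4031. The causes were not tested.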

Other observations

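Genes of cell division and the replication-dependent histone genes, lists put together after their values were seen, had log2 fold changes below 0 for nearly all members. All 26 cell division genes were below 0 in the pooled comparison, with a median log2 fold change of -0.38 (-0.73 in females, -0.13 in males) beside -0.0031 over all genes. Of the 26, 9 were lower at an unadjusted p under 0.05, beside 4.43% of all genes. In females alone 10 were lower at that level and in males alone 1, beside 15% and 0.609% of all genes. Of 59 histone genes, whose near-identical copies could share reads, 58 were below 0 with a median of -0.21 (-0.30 in females, -0.086 in males). Of the 59, 26 were lower at an unadjusted pooled p under 0.05, with 31 lower in females alone and 2 in males alone. The sign agreed between the sexes for 21 of 26 and 47 of 59 genes. Con female 2 stood apart, at 216 CPM (counts scaled to a common library total) summed over the cell division genes where the next Con female was at 118. By group the sum ran from 59.7 to 216 in Con females, 65.7 to 86.7 in MSUS females, 62.1 to 123 in Con males and 56.9 to 107 in MSUS males. Without Con female 2 the median of the cell division genes was -0.21 with 2 of 26 lower at an unadjusted p under 0.05, and that of the histone genes was -0.12 with 13 of 59 lower, beside 2.94% of all genes.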
